A study of Mus musculus with 8 samples.

Results

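The integrin genes of progenitor adhesion were followed in blood stem and progenitor cells of mouse bone marrow with and without conditional deletion of Msi2. The set holds 10 genes chosen by name for their part in adhesion: the alpha subunits Itga4, Itga5, Itga6, Itga9, Itgal, Itgam and Itgav and the beta subunits Itgb1, Itgb2 and Itgb3. All probe sets annotated to these genes alone were taken, 31 of the 45101 on the array. Of these, 9 were listed at exactly 0 on all arrays and carry no measurement. The remaining 22 probe sets cover 9 genes, and 24404 probe sets of all genes were tested beside them. Itgam, the alpha subunit of the myeloid integrin Mac-1, has 1 probe set and it was listed at 0, so nothing can be said of its level.

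Biotin-labelled total RNA of LSK cells was hybridised to 8 Affymetrix mouse arrays. LSK cells lack the markers of mature lineages and express Sca-1 and Kit, and among them are the blood stem cells and the first multipotent progenitors. The 4 control arrays are of normal, wild-type mice. The 4 knockout (KO) arrays are of mice in which Msi2, the gene of the RNA-binding protein Musashi-2, was deleted conditionally. The deleter allele, the timing of the deletion and the age and sex of the mice are not given in the sources used here, nor is it said whether each array came from 1 animal. All p-values therefore measure the spread between these arrays. In a bulk sample, fewer cells of a type and less RNA per cell cannot be told apart.

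Integrins are cell surface receptors made of 1 alpha and 1 beta chain, which bind matrix proteins or partner molecules on other cells and connect them to the actin cytoskeleton. The beta chain Itgb1 pairs with Itga4 (VLA-4), Itga5 (VLA-5), Itga6, Itga9 and Itgav. Itgb2 pairs with Itgal (LFA-1) and Itgam, and Itgb3 pairs with Itgav. In the bone marrow, VLA-4 binds VCAM-1 and fibronectin and is known for its part in the homing and retention of stem and progenitor cells, and LFA-1 binds ICAM proteins on other cells.

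Itga4 and Itga9 belong to the same subfamily of alpha chains, share ligands and share the partner Itgb1. Their promoters are shown side by side because Itga9 has the largest KO minus control difference of the measured integrins and Itga4 a small one (whether the 2 differ was not tested), as the 250 bases before the RefSeq start on GRCm38.p6, on the plus strand, at chr9:118711442-118711691 for Itga9 and chr2:79255176-79255425 for Itga4.
Itga9: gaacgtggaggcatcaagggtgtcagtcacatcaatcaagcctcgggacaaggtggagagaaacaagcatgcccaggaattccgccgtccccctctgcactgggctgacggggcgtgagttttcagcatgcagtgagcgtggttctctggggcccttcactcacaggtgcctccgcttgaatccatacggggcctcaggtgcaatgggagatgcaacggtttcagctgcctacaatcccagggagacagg
Itga4: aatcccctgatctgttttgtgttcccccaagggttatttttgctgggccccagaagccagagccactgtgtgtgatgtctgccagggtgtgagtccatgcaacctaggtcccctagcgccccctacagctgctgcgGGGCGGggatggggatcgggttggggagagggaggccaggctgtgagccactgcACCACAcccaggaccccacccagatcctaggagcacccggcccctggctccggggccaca
Capitals mark matches on either strand. The motifs searched were the GC box with the letters GGGCGG, the box spelled CCAAT, the TATA box with the letters TATAAA, the RUNX core with the letters TGTGGT, the GATA core with the letters AGATAA and the ETS core with the letters CCGGAA, and no matches overlapped in the integrin windows. The Itga4 window holds 1 GC box and 1 RUNX core, and the Itga9 window holds none of the 6 motifs. Of 32851 windows of this length in the RefSeq table, 32.7% held the GC box, 33.8% the CCAAT box, 12.4% the TATA box, 14% the RUNX core, 9.99% the GATA core and 12% the ETS core. GC content was 58.4% for Itga9 and 64% for Itga4, against a median of 52.4% over all windows. Windows were in the table for 6 of the 10 genes. Those of Itga5 (2 matches), Itgb1 and Itgam (1 each) also held the GC box, and that of Itgav held none of the motifs. Itga6, Itgal, Itgb2 and Itgb3 had no window there.

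The arrays were alike in scale, with median log2 signals of 7.03 to 7.07 and correlations between arrays of 0.942 to 0.983. Msi2 KO 3 stood apart on the first principal component, at 69.4 against -39.4 to 17.0 on the other arrays (28.6% of the variance). The brightest probe set of Msi2 kept 88.7%, 79.0%, 14.2% and 44.8% of the mean control signal on the KO arrays, taken in order of replicate, where single controls ranged from 90.7% to 108%. Of its 5 probe sets 4 had no overlap, and over these the share ran from 56.7% to 88.7% on Msi2 KO 1, 56.5% to 79.0% on Msi2 KO 2, 13.3% to 17.8% on Msi2 KO 3 and 38.1% to 44.8% on Msi2 KO 4. Of the 8 arrays, control 1 and the first pair of KO arrays (Msi2 KO 1 and Msi2 KO 2) had low Xist and the others high Xist. The Y-linked gene Eif2s3y read 8.05 to 8.14 on the arrays with low Xist and 3.36 to 3.62 on the others. Both sexes were therefore probably present, in unequal shares in the 2 groups. Of 12 LSK markers 10 were measured, of which 9 had a lower KO mean and Kit a higher one (8.70 in controls, 9.04 in KO). Their summed linear signal was 7024 to 8076 in controls, 3415 on Msi2 KO 3 and 6591 to 7716 on the other KO arrays. T cell and B cell markers were at 0 on all arrays for 6 of 9 genes in each list, including Cd3e, Cd4 and Pax5.

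The comparison asks how expression of these receptors differs between the arrays of Msi2 KO and control mice. For Itga9 and Itgal every KO array lay below every control array, and the other 7 measured genes showed no such separation on their brightest probe set. No probe set passed the threshold of 0.05 on the adjusted p of limma, a linear model with a shared estimate of spread: 0 of the 22 integrin probe sets and 0 of all 24404 (0%). At an unadjusted p under 0.05 stood 4 of the 22, 3 lower and 1 higher in KO, where all probe sets gave 2371 (9.72%), 1182 lower (4.84%) and 1189 higher (4.87%). The groups did not overlap for 3 of the 22, all with KO below control, where all probe sets gave 1485 (6.09%), and 723 (2.96%) with KO below. The 22 were split evenly, with 11 higher and 11 lower and a median log2 difference of 0.01, and the median over all probe sets was 0.00. The median size of the difference, sign left aside, was 0.18 for the integrins and 0.17 for all probe sets. All differences below are KO minus control on the log2 scale.

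**Figure D1:**
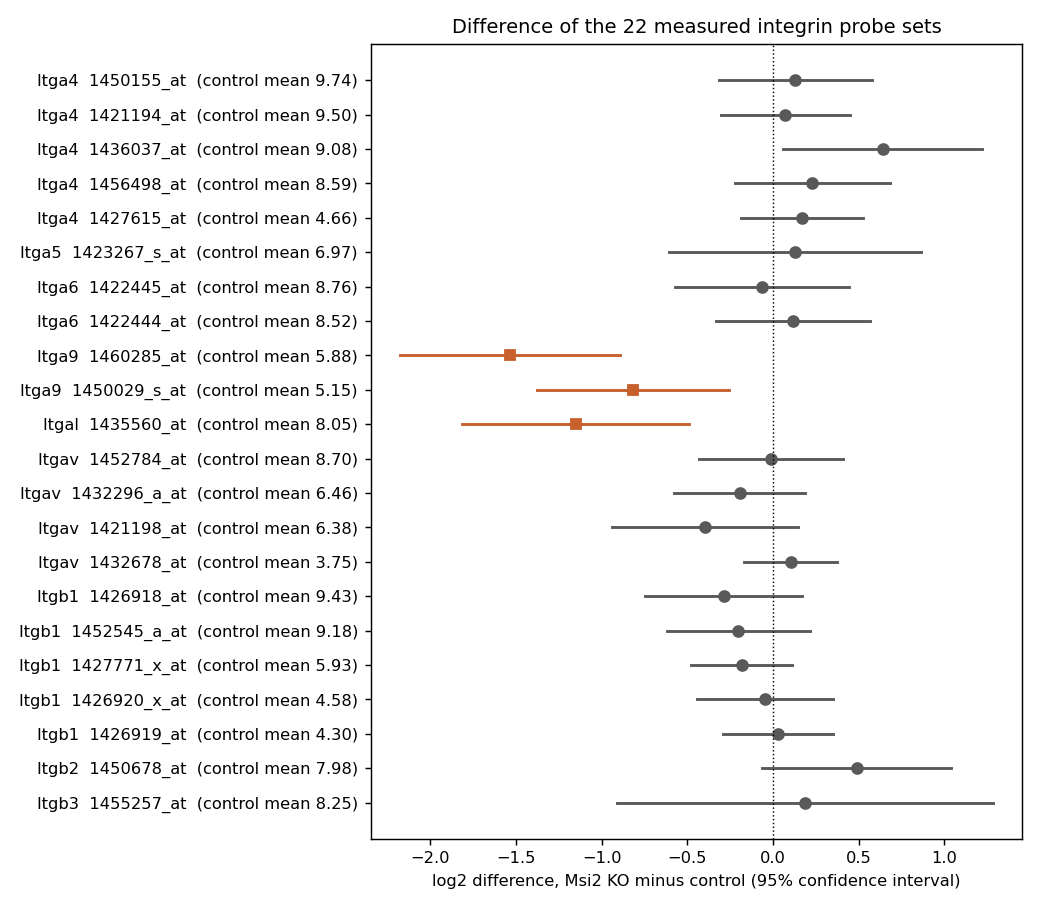
Log2 difference (Msi2 KO minus control, x axis) of the 22 measured integrin probe sets with 95% confidence intervals from limma, each labelled with its control mean. Orange squares mark the 3 probe sets whose 4 KO arrays all lay below the 4 control arrays, at -1.53 and -0.82 for Itga9 and -1.15 for Itgal.

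Itga9 is the alpha chain of the receptor that pairs with Itgb1 and binds tenascin, osteopontin and VCAM-1. Its probe set 1460285_at read 6.29, 5.43, 6.27 and 5.51 on control 1 to control 4, and 4.10, 5.01, 4.05 and 4.22 on Msi2 KO 1 to Msi2 KO 4. Every KO array lay below every control, with Msi2 KO 2 closest to the control range. The mean went from 5.88 ± 0.47 to 4.34 ± 0.45 (SD, n = 4 each). The difference was -1.53 with a 95% confidence interval of -2.17 to -0.89, or 2.90-fold. By unadjusted p it stood 28th among all probe sets, at an adjusted p of 0.291 (two-sided exact permutation p 0.0286, the smallest that 4 arrays against 4 can give).

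The other measured Itga9 probe set, 1450029_s_at, pointed the same way. It read 5.54, 4.76, 5.58 and 4.73 in controls and 4.41, 4.40, 3.92 and 4.61 in KO, again without overlap. The difference was -0.82 (interval -1.38 to -0.25, adjusted p 0.400, two-sided exact permutation p 0.0286). The remaining probe set, 1420860_at, was listed at 0. Across the 8 arrays the 2 measured probe sets had a Pearson correlation of 0.893, a value that includes the difference between the groups. Both placed control 1 and control 3 above control 2 and control 4, and both were lowest on Msi2 KO 3. The highest KO array was Msi2 KO 2 for 1460285_at and Msi2 KO 4 for 1450029_s_at, where its 4.61 lay close to 4.73 on control 4. Itga9 signal was low throughout: the mean of 1460285_at lay at the 21.0th percentile of the tested probe sets.

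Itgal encodes CD11a, the alpha chain of LFA-1, an integrin of leukocytes that binds ICAM proteins. Its probe set 1435560_at read 8.24, 7.87, 8.02 and 8.09 on control 1 to control 4. On Msi2 KO 1 to Msi2 KO 4 it read 6.04, 7.49, 7.32 and 6.76. The controls lay close together and the KO arrays were spread below them, with Msi2 KO 1 lowest. Means were 8.05 ± 0.15 and 6.90 ± 0.66 (SD, n = 4 each), a difference of -1.15 (interval -1.81 to -0.49), or 2.22-fold. The adjusted p was 0.354 (exact permutation p 0.0286, two-sided). The other Itgal probe set, 1425367_at, was listed at 0, so this value rests on 1 probe set.

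Msi2 KO 1 had the lowest Itgal, at -2.02 from the control mean, with Itga9 at -1.78. Msi2 KO 3, the array with the least Msi2 signal on each of the 5 Msi2 probe sets, stood at -0.73 for Itgal and -1.83 for Itga9. Without Msi2 KO 3 the difference was -1.44 for Itga9 1460285_at and -1.29 for Itgal. Among the arrays with low Xist, the single control read 6.29 for Itga9 and 8.24 for Itgal, and both KO arrays lay below it. Among those with high Xist, the KO arrays lay below all 3 controls for both genes. Since the groups do not overlap over all arrays, any split of the arrays gives this order, so it says nothing further about Xist. With the Xist level as a covariate the differences were -1.68 for Itga9 and -1.15 for Itgal.

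**Figure D2:**
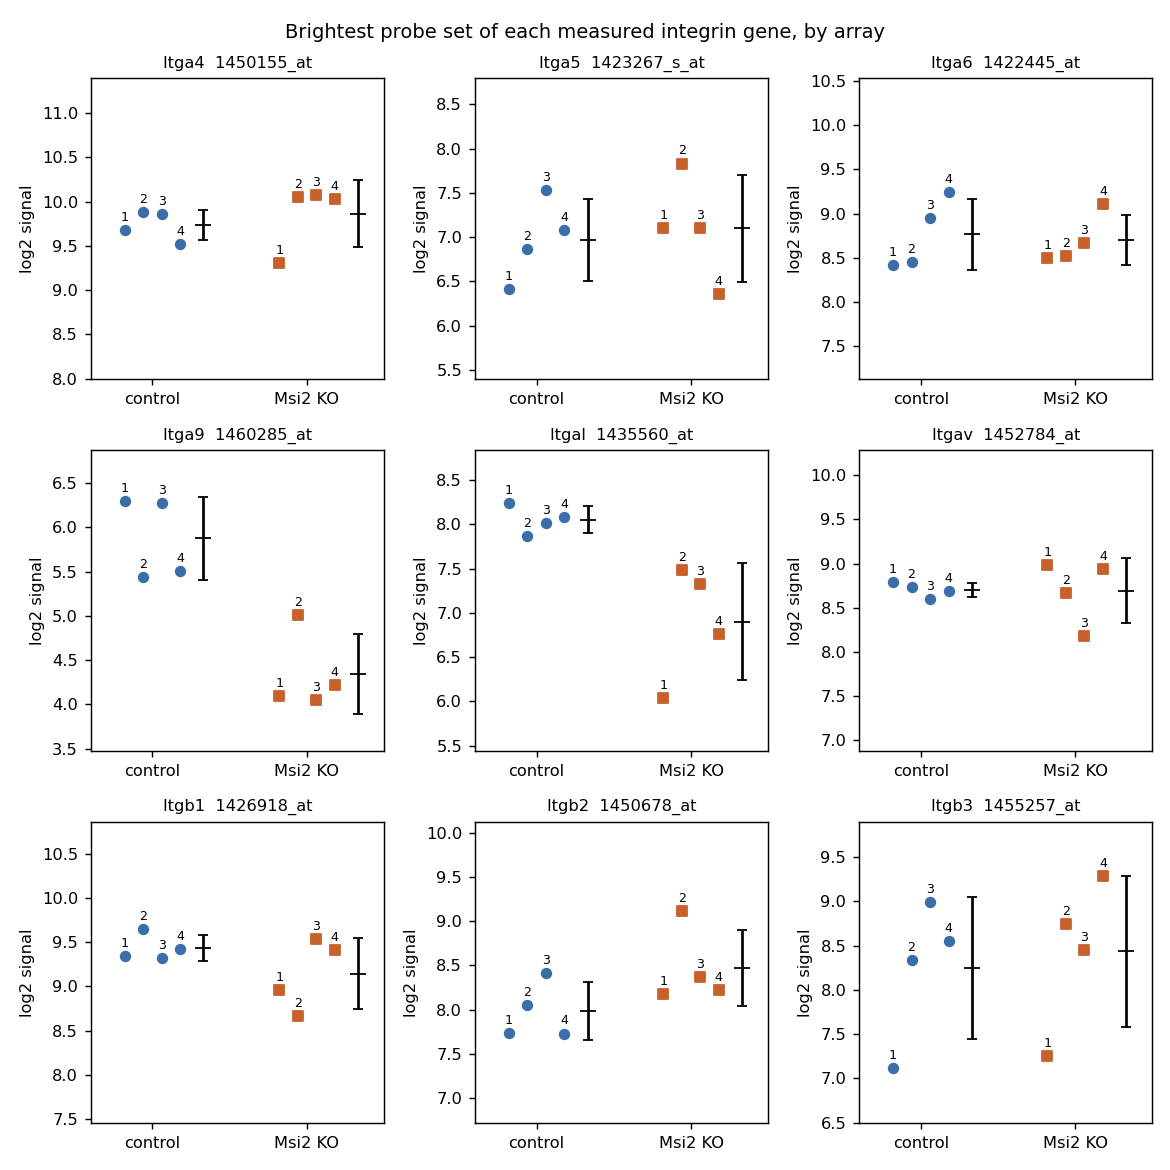
Log2 signal (y axis, each panel spanning the same range of log2 units) of the brightest probe set of the 9 measured integrin genes, with controls as blue circles and Msi2 KO as orange squares, numbered by replicate. Black bars give the mean and SD (n = 4). Itga9 and Itgal are the panels where no KO array reaches the control range.

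Itga4, the alpha chain of VLA-4, was measured by 5 probe sets, each with a higher mean in KO. The brightest, 1450155_at, read 9.68, 9.89, 9.86 and 9.52 in controls and 9.31, 10.05, 10.08 and 10.03 in KO. 3 KO arrays lay above all controls and Msi2 KO 1 lay below all of them. The difference was 0.13, with an interval of -0.32 to 0.58 that leaves room for a small change either way (adjusted p 0.874).

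The 5 Itga4 probe sets did not give the same size. 1436037_at, named after its values were seen, went from 9.08 ± 0.49 to 9.72 ± 0.31 (SD, n = 4 each), a difference of 0.64 (interval 0.06 to 1.22). Its groups overlapped, and it did not pass (adjusted p 0.480, two-sided exact permutation p 0.0857). Control 1 was the lowest array, and the difference without it was 0.41. The remaining Itga4 probe sets differed by 0.07 (1421194_at), 0.23 (1456498_at) and 0.17 (1427615_at, a dim probe set with a control mean of 4.66). Correlations among the 5 over the 8 arrays ran from 0.30 to 0.861.

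Itga5, the alpha chain of the fibronectin receptor VLA-5, rested on 1 measured probe set of 4. 1423267_s_at read 6.41, 6.87, 7.53 and 7.08 in controls and 7.11, 7.83, 7.11 and 6.35 in KO. The groups overlapped widely, with a difference of 0.13 (interval -0.61 to 0.86, adjusted p 0.933).

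Itga6, the alpha chain of laminin receptors, is used as a marker of stem and progenitor cells. Probe set 1422445_at read 8.42, 8.46, 8.95 and 9.24 in controls and 8.49, 8.53, 8.67 and 9.11 in KO, so the KO values lay inside the control range. The difference was -0.06 (interval -0.57 to 0.44, adjusted p 0.957). Probe set 1422444_at had the opposite sign at 0.12 (adjusted p 0.888), from 8.55, 8.34, 8.36 and 8.83 in controls to 8.85, 8.54, 8.20 and 8.97 in KO. The groups overlapped for both.

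Itgav, the alpha chain of receptors for vitronectin and other proteins with an RGD sequence, was measured by 4 probe sets that disagreed among themselves. The brightest, 1452784_at, read 8.79, 8.74, 8.60 and 8.69 in controls and 8.98, 8.67, 8.18 and 8.94 in KO. The controls were tight (SD 0.08) and the KO arrays lay on both sides of them (SD 0.37), for a difference of -0.01 (interval -0.43 to 0.41, adjusted p 0.992). 1432296_a_at (-0.19) and 1421198_at (-0.40, interval -0.94 to 0.15) were lower in the mean, with overlapping groups, and were -0.077 without control 1 and -0.21 without Msi2 KO 1. The dim 1432678_at, at 3.71, 3.60, 3.83 and 3.85 in controls and 3.78, 3.92, 3.89 and 3.82 in KO, differed by 0.10. Correlations between the Itgav probe sets ran from -0.396 to 0.267, so they did not track each other over these arrays.

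Itgb1, the common partner of Itga4, Itga5, Itga6 and Itga9, was measured by 5 probe sets. The brightest, 1426918_at, read 9.34, 9.65, 9.33 and 9.42 in controls and 8.96, 8.67, 9.54 and 9.41 in KO. Msi2 KO 1 and Msi2 KO 2, which had low Xist and the most Msi2 signal of the KO arrays, lay below all controls. Control 1, also with low Xist, read 9.34, and Msi2 KO 3 and Msi2 KO 4 lay within the control range. The difference was -0.29 (interval -0.75 to 0.17, adjusted p 0.686), and -0.13 without Msi2 KO 2. The next probe set, 1452545_a_at, had the same 2 KO arrays lowest, at 8.60 and 8.85, and differed by -0.20. The dim probe sets differed by -0.18 (1427771_x_at) and -0.05 (1426920_x_at). The dimmest, 1426919_at, differed by 0.03, from 4.00, 4.37, 4.43 and 4.39 in controls to 4.23, 4.46, 4.36 and 4.25 in KO.

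Itgb2, the CD18 chain shared by LFA-1 and Mac-1, was higher in the KO mean. Probe set 1450678_at read 7.73, 8.05, 8.41 and 7.73 in controls and 8.18, 9.11, 8.36 and 8.22 in KO. Control 3 lay above all but 1 KO array, so the groups overlapped. The difference was 0.49 with an interval of -0.06 to 1.04 (adjusted p 0.558, two-sided exact permutation p 0.143). It was 0.27 without Msi2 KO 2.

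Itgb3, the CD61 chain that pairs with Itgav and, in megakaryocytes, with Itga2b, varied most within the groups among the brightest probe sets of the 9 genes. Probe set 1455257_at read 7.11, 8.34, 8.99 and 8.55 in controls and 7.26, 8.74, 8.46 and 9.28 in KO. Replicate 1 was the lowest array in each group. The Itgb3 difference was 0.19 (interval -0.91 to 1.28, adjusted p 0.935).

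The alpha and beta chains of 1 receptor can be set side by side through their own differences, since levels of different probe sets cannot be compared. For LFA-1, Itgal was lower by 1.15 and Itgb2 higher by 0.49 in the mean. The Itgal minus Itgb2 signal, centred on its control mean, lay between -0.47 and 0.44 in controls and read -2.21, -1.69, -1.11 and -1.54 in KO, without overlap. For Itga9 and Itgb1 the same quantity lay between -0.65 and 0.51 in controls and read -1.30, -0.11, -1.93 and -1.64 in KO, so Msi2 KO 2 overlapped. Of the 7 pairs formed by the measured genes, only Itgal with Itgb2 separated the groups. Itgal separated them by itself and Itgb2 lay above its control mean on every KO array, so the pair adds no separate result. No share over other gene pairs is given here. These pairs were examined after the values were seen, and no test was made.

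**Figure D3:**
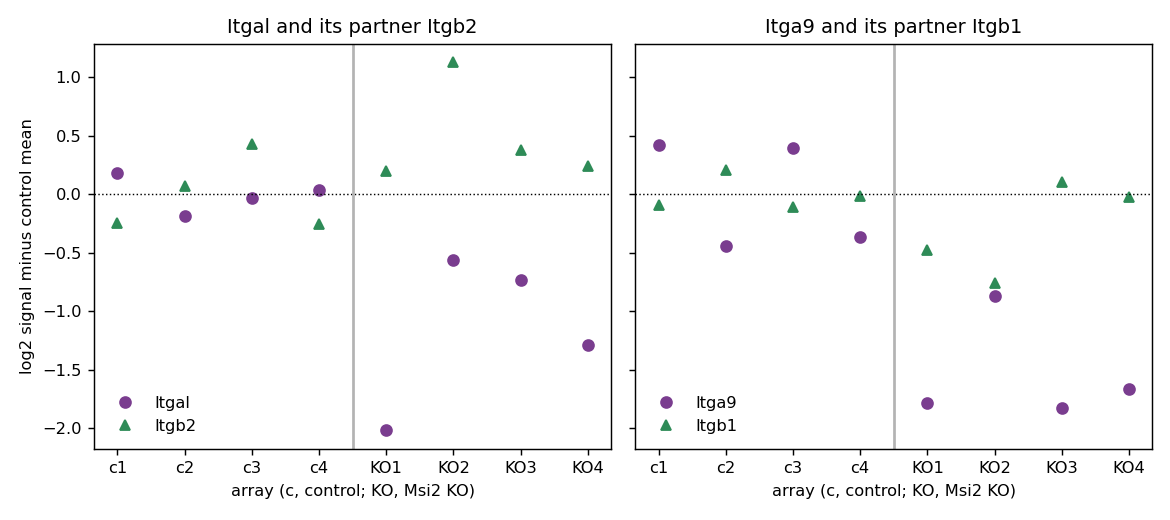
Log2 signal minus the control mean (y axis) on each array (x axis) for Itgal with its partner Itgb2 and for Itga9 with its partner Itgb1. On the KO arrays Itgal lies at -2.02 to -0.56 and Itgb2 at 0.20 to 1.13, and Itga9 lies at -1.83 to -0.87 and Itgb1 at -0.76 to 0.10.

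Itga9 and Itgal had a Pearson correlation of 0.850 over the 8 arrays, a value that includes the difference between the groups. The genes most like Itga9 in this measure were Phldb1 (r = 0.972), the receptor gene Cd244a (r = 0.959) and the phosphatase gene Dusp4 (r = 0.957). Their KO minus control differences were -0.78, -1.26 and -0.69. For Itgal they were Tha1 (0.967), Armcx1 (0.960) and Rabgap1 (0.959). For Itgb1 they were N4bp2l1 (0.978), Hpf1 (0.966) and Mtf2 (0.966). With 8 arrays, 42 genes reached a correlation above 0.9 with Itga9, 21 with Itgal and 64 with Itgb1.

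The genes around the integrins were read from a fit with 1 probe set per gene, which tested 10720 genes. There too 0 genes passed (0%), with 1222 (11.4%) at an unadjusted p under 0.05, 5.66% on the lower side, and 762 (7.11%) whose groups did not overlap, 3.48% with KO below and 3.63% with KO above. In this fit Msi2 itself differed by -1.12 (interval -2.24 to 0.01, adjusted p 0.442). Of 17 other integrin subunits 7 were measured and 8 were listed at 0. Of the 7, 5 were lower and 2 higher, with 0 at an unadjusted p under 0.05 and 0 without overlap. Itgb7, the partner of Itga4 in gut-homing lymphocytes, differed by -0.32, Itga3 by -0.32 and Itgb5 by 0.29. Single arrays weighed on these: Itga3 was -0.041 without control 1, Itgb7 was -0.20 without control 2, -0.51 without Msi2 KO 1 and -0.15 without Msi2 KO 4, and Itgb5 was -0.092 without Msi2 KO 2 and 0.59 without Msi2 KO 3. Itga2b, the megakaryocytic partner of Itgb3, read 7.60 in controls and 7.46 in KO.

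Of 45 genes of integrin activation and adaptors 33 were measured, 17 higher and 16 lower, with a median difference of 0.03 against 0.00 for all genes. At an unadjusted p under 0.05 stood 4 of the 33 (11.4% of all genes), and 0 passed after adjustment. The groups did not overlap for 5 of the 33, 3 above and 2 below, where all genes gave 7.11%, 3.63% above and 3.48% below. Skap2, a Src kinase-associated adaptor used in integrin signalling of myeloid cells, read 11.40, 11.37, 11.44 and 11.37 in controls and 10.93, 10.58, 10.51 and 10.82 in KO. Its controls agreed within 0.07 and every KO array lay below them (difference -0.68, SE 0.13, adjusted p 0.230). Cd53, a leukocyte tetraspanin, differed by -0.48 (adjusted p 0.322), also without overlap.

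Flna (filamin A), which links integrin tails to actin, read 9.36, 9.65, 9.50 and 9.28 in controls and 10.07, 9.98, 9.76 and 9.85 in KO, a difference of 0.46 (SE 0.14, adjusted p 0.304). Actn4, an alpha-actinin, differed by 0.56 (adjusted p 0.333), and both were without overlap. Ilk (integrin-linked kinase), named after its values were seen, was the fifth such gene, at 0.21. Talin (Tln1, 0.03), kindlin-3 (Fermt3, 0.29) and the GTPase genes Rap1a (-0.13) and Rap1b (-0.02), all needed to switch integrins on in blood cells, were likewise picked by role and had overlapping groups.

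Of 31 ligand genes 16 were measured and 14 were at 0, fibronectin (Fn1) among them. 11 were lower and 5 higher, with a median of -0.18, and 1 stood at an unadjusted p under 0.05 (11.4% of all genes). That gene was Tgfb1, whose latent protein is bound by Itgav receptors, with a difference of 0.52 (adjusted p 0.388). Icam4, a ligand made by erythroid cells, differed by 0.79, Icam1, the ligand of LFA-1, by -0.44, Lamc1, a laminin chain, by -0.39, and Vcam1 by 1.24 (SE 0.87). None of these separated the groups. Vcam1 was 0.30 and Icam4 0.52 without control 1, Icam1 was -0.17 without Msi2 KO 3, and Lamc1 was -0.24 without control 3.

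Of 21 other genes of homing and adhesion 16 were measured, 11 lower and 5 higher, with a median of -0.32. At an unadjusted p under 0.05 stood 5, all lower, where all genes gave 11.4%, 5.66% on the lower side. 2 separated the groups, both with KO below, where all genes gave 7.11%, 3.48% with KO below. Selp (P-selectin) went from 8.003 ± 0.302 to 6.91 ± 0.72 and Robo4 from 6.30 ± 0.22 to 5.34 ± 0.58 (SD, n = 4 each). Their adjusted p was 0.310 and 0.293. Esam, which stem cells share with endothelium, differed by -1.21 and overlapped (adjusted p 0.376), and Sele by 0.59. Without Msi2 KO 3 Esam was -0.78, and Sele was 0.31 without control 1 and 0.24 without Msi2 KO 1. The chemokine receptor gene Cxcr4 (0.06), the hyaluronan receptor gene Cd44 (-0.10) and Selplg (-0.08), chosen here by role, lay near 0.

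**Figure D4:**
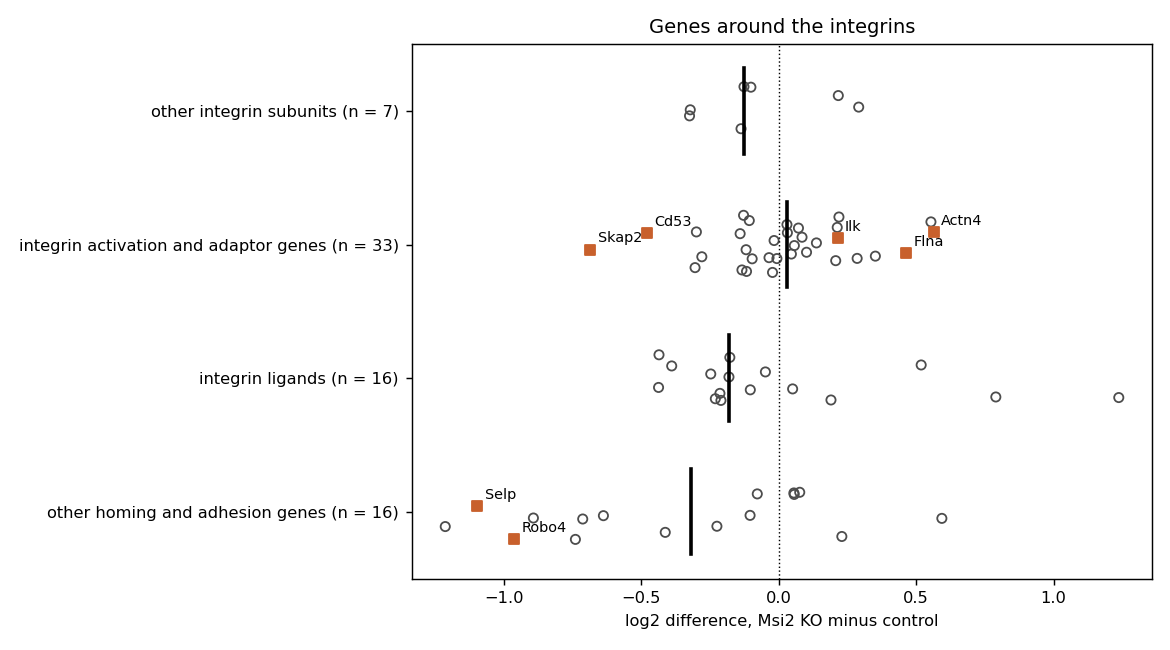
Log2 difference (Msi2 KO minus control, x axis) of the measured genes in 4 lists around the integrins, with points spread vertically for legibility and black bars at the medians. Orange squares, named, are genes whose KO and control arrays did not overlap: Skap2, Cd53, Ilk, Flna, Actn4, Selp and Robo4.

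Markers of other cells are given beside these values. No marker gene passed the adjusted p, the summed signal of every marker list overlapped between the groups, and the part of these cells in the integrin differences was not tested. Of all genes, 7.11% had no overlap, 3.48% with KO below and 3.63% with KO above. All 11 measured erythroid markers of 15 listed had a higher KO mean. Their summed linear signal was 5004.5 to 10173 in controls, 22258 on Msi2 KO 3 and 8424 to 11760 on the other KO arrays. Hba-a1 and Alas2 were at 0, and 1 of the 11, Blvrb, had no overlap (difference 1.72). Of the mast cell and basophil markers 6 of 7 measured were higher, with sums of 1733 to 2877 and 2368 to 3128, and 2 lay above control without overlap, Fcer1a (2.60, adjusted p 0.176) and Cpa3 (1.87). Macrophage and monocyte markers were higher for 7 of 9, with C1qa, C1qc and Cd14 at 0, and 2 had no overlap, Cd68 (1.09) and Lyz2 (-0.79). The sums of this list were 2517 to 3939 in controls, 2230 on Msi2 KO 3 and 3773 to 4378 on the other KO arrays. Granulocyte markers were higher for 6 of 7, with a median difference of 0.06 and Ltf, Camp, Mmp8 and Mmp9 at 0. Of the 7, 0 stood at an unadjusted p under 0.05 (11.4% of all genes). The granulocyte sums were 9604 on control 1, 17001 to 17854 on the other controls and 12842 to 18953 in KO.

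The markers of stroma and endothelium were lower for 6 of 8. Their sums were 1032 to 1133 in controls, 536 on Msi2 KO 3 and 887 to 1056 on the other KO arrays. Kdr, Col1a1, Col3a1, Cxcl12, Lepr and Pdgfra were at 0. Both measured B cell markers were lower, with sums of 328 to 755 and 210 to 409. Of the megakaryocyte and platelet markers 2 of 6 were higher, and Gp1bb, Gp9, Gp6 and Treml1 were at 0. The sums of this list were 1403 to 3147 in controls, 4944 on Msi2 KO 4 and 2147 to 2571 on the other KO arrays. The single measured gene of the T and NK cell list, Nkg7, read 9.66 in controls and 9.80 in KO.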

How the data were processed

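The authors deposited log2 signals per probe set, normalized with RMA per the submitters' processing notes (version not given in the sources used here). Of 45101 probe sets, 20664 (45.8%) were exactly 0 on all 8 arrays, by a step no source names, and were left out with the AFFX controls. No array was left out. Gene names are those of the array annotation, updated by gene ID from RefSeq's GRCm38.p6 gene table (34754 of 34958 single-gene probe sets matched). Groups came from the sample titles. The groups were compared by lmFit and eBayes of limma 3.58.1, run in R 4.3.3 (two-sided, Benjamini-Hochberg over all 24404 probe sets, threshold 0.05), and again with the brightest probe set of each of 10720 genes. The spread between 4 arrays a group limits the precision. Exact permutation tests used all 70 assignments. The procedure was tested on simulated data. The integrin genes and all gene lists were chosen with earlier results of these data known. By rule, the brightest probe set of each integrin is given on every array, with any other that separates the groups or opposes it. For each of the 4 integrin network lists the 3 genes with the smallest p and those with the largest differences are named, and genes named outside this rule were chosen by role or after their values were seen. Alternatives covered normalization, filters, probe set choice, variance prior, array weights, replicate block, Xist and leaving out each array.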

Additional observations from a re-analysis of the deposited data

Results flagged for a closer look

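3 integrin values lay far from the other 3 arrays of their group, out of 44 groups of 4 examined (chance singles out about 1 group in 20). The brightest Itga4 probe set, 1450155_at, read 9.31 on Msi2 KO 1, while the other KO arrays read 10.03 to 10.08. Itgav probe set 1432296_a_at read 6.47 on Msi2 KO 1, against 6.18 to 6.22 on the others. Itgb1 probe set 1426919_at read 4.00 on control 1, against 4.37 to 4.43 on the other controls, all of them low signals.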

How the results depend on the processing

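In no alternative did an integrin probe set pass the threshold (0 in each), and the differences of Itga9 (-1.76 to -1.40 for 1460285_at, -0.96 to -0.64 for 1450029_s_at), Itgal (-1.35 to -0.86), Itgb2 (0.27 to 0.63) and the brightest Itga4 probe set (0.06 to 0.32) kept their sign in every alternative that could be run for them. Adjusted p ran from 0.158 to 0.537 for Itga9 1460285_at and from 0.221 to 0.654 for Itgal. Of 361 recomputed differences of the 22 integrin probe sets, 342 kept their sign, and 15 probe sets never changed it. Over all probe sets, 1 passed with repeated quantile normalization, 1 without those below the median level, 2 with an intensity trend and robust prior, 1 with array weights and 1 without probe sets ending in _s_at or _x_at, and 0 to 1 when an array was left out. Over all genes, 4 passed with Xist as a covariate, and 0 to 1 with an array left out. The count of 3 integrin probe sets without overlap was 1 when those below the median level were left out, which removes Itga9, and 3 to 5 with an array left out. Leaving out an array cannot make separated groups overlap, so the same 3 had to stay without overlap in each of these 8 settings. Without Msi2 KO 1 the 2 further ones were Itga4 1450155_at and 1436037_at, both above control, where 11.4% of all probe sets did not overlap.

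Some signs turned, and the cause was not tested. With array weights the values were -0.076 for Itga5, 0.045 for Itga6 1422445_at, 0.075 for Itgav 1452784_at and -0.029 for Itgb1 1426919_at (-0.10, 0.048 and 0.095 for the first 3 in the gene fit). With Xist they were 0.057 for Itga6 1422445_at in both fits and 0.059 for Itgb1 1426920_x_at, and Itga6 as the mean of its probe sets was 0.027. With an array left out the ranges were -0.040 to 0.13 for Itga4 1421194_at, -0.12 to 0.38 for Itga5, -0.20 to 0.094 for Itga6 1422445_at, -0.11 to 0.16 for Itgav 1452784_at, -0.20 to 0.043 for Itgb1 1426920_x_at, -0.071 to 0.072 for Itgb1 1426919_at, -0.19 to 0.58 for Itgb3 and -0.092 to 0.59 for Itgb5. Itga5 has no value without probe sets ending in _s_at.

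The sample titles give some arrays of the 2 groups the same number, and no pairing is stated. The correlations of the deviations of same-numbered arrays from the group means were 0.132, -0.121, 0.079 and -0.038. Only Msi2 KO 1 correlated best with the control of its own number, and these values cannot tell whether the arrays were paired. With the replicate block 0 probe sets and 0 genes passed, as without it, with adjusted p of 0.450 for Itga9 1460285_at and 0.461 for Itgal.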

Other observations

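Vcam1, which encodes the ligand of VLA-4 and is made by marrow stroma and by macrophages, was uneven among the controls: it read 3.38 on control 1 and 6.67 to 7.66 on the other controls, against 6.04 to 8.30 on the KO arrays. C1qb, a complement gene of macrophages, was likewise lowest on control 1 (3.29), read 6.62 to 7.91 on the other controls, 5.22 on Msi2 KO 3 and 9.60 to 9.83 on the other KO arrays. The other measured macrophage and monocyte markers were divided. Csf1r (7.05) and Cd163 (5.19) were also lowest of all 8 arrays on control 1. Lyz2 was lowest of the controls there (10.53 against 10.66 to 10.77), with every KO array lower still. Cd68, Adgre1, Ccr2 and Mrc1 were not lowest on control 1. Cd68 was highest of the controls on control 1 (6.76).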
